A study of Homo sapiens with 31 samples.

Results

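The APOBEC3 cytidine deaminases are a cluster of related human genes, and 5 of them, APOBEC3B, APOBEC3C, APOBEC3D, APOBEC3F and APOBEC3G, were followed here across 8 groups of xenograft tumours. Each was read by 1 probe set annotated to that symbol alone, and together they make up 5 of the 17314 genes measured. The family was selected on measured values: it was proposed after APOBEC3B had been seen among the higher genes of untreated A3 against untreated wt tumours. Differences between untreated lines are therefore given as description, without a test, and the tests concern the treated tumours and the response to treatment. The responses still use the untreated arrays as their baseline, and the treated tumours come from the same clones.

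The enzymes of this family convert cytosine to uracil in single-stranded DNA. They are best known as antiviral restriction factors that damage the newly made DNA of retroviruses and limit the movement of retroelements. APOBEC3B is mainly nuclear and is associated with a cytosine mutation signature in several human cancers, APOBEC3D, APOBEC3F and APOBEC3G are cytoplasmic proteins that are packaged into virus particles, and APOBEC3C is a smaller member with 1 deaminase domain. Uracil left in DNA is removed by uracil-DNA glycosylase (UNG) and base excision repair.

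The tumours grew from PC3, an established cell line of human prostate carcinoma without functional p53. The line called wt is PC3 that had only been kept in culture, while A3, D3 and D4 are clones re-isolated after passage in animals. The labels list D3 and D4 as resistant, and wt and A3 as sensitive, towards cyclophosphamide (CPA), an alkylating prodrug that crosslinks DNA after activation in the liver. All lines were implanted, and once the tumours averaged 30 mm3 some received 120 mg/kg CPA intraperitoneally and the others served as untreated controls. Line and treatment make 8 groups, and each held 4 arrays except untreated A3 with 3, which gives 31 arrays in all. The design had planned 32, and the submitters left out 1 untreated A3 array as an outlier. Each passaged line is 1 clone, so a difference between lines cannot be told apart from a difference between single clones. The labels used here do not name the host animal, and they do not say that each array held the tumour of a separate animal, so the p-values reflect only the scatter of these samples, which may be technical in part.

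Levels are log2 values, so a difference of 1 is a 2-fold change, and levels of different genes are not set against each other because each probe set has its own brightness. Differences are given with the standard error (SE) of 1 limma fit over all arrays, and a gene was called where its Benjamini-Hochberg adjusted p over all 17314 genes was under 0.05. Array medians lay between 6.59 and 6.73, and arrays of 1 group correlated at 0.9847 or more across genes. The array number limits the precision, with a median residual SD of 0.148 over genes. The tumours were profiled in bulk, where fewer expressing cells and less RNA per cell cannot be told apart. The leukocyte gene PTPRC (CD45) averaged 3.11 to 3.26 over the 8 groups and the T cell gene CD3E 5.06 to 5.34, in a table whose values ran from 1.27 to 14.1. The mean of 9 lymphoid markers lay between 5.19 and 5.38, and the epithelial marker EPCAM between 8.25 and 8.80. The arrays carry probe sets for human genes, so low immune markers need not mean that host immune cells were few. The prostate luminal marker KLK3 (prostate-specific antigen), which PC3 is known to lack, averaged 5.86 to 5.98.

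Over the 6 pairs of lines in CPA-treated tumours, 10 of the 30 tests of the 5 genes were called with limma, and 13 had an unadjusted p under 0.05. The called tests lay in APOBEC3B (5), APOBEC3G (3) and APOBEC3D (2). Treated A3 against wt gave 2 of 5 called, beside 16.3% of all genes, and D4 against wt gave 2 beside 15.1%. D3 against wt gave 1 beside 16.4%, D3 against A3 gave 1 beside 4.55%, D4 against A3 gave 2 beside 12.4% and D4 against D3 gave 2 beside 8.05%. With 5 genes these counts say little of the family as a whole, and the members did not all move together. APOBEC3C, APOBEC3D, APOBEC3F and APOBEC3G each had their lowest group mean in untreated A3 and their highest in a D4 group. APOBEC3B was lowest in untreated wt and highest in treated A3. These orders of means are description. In treated A3 against wt, for example, APOBEC3B was called higher and APOBEC3D lower.

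**Figure D1:**
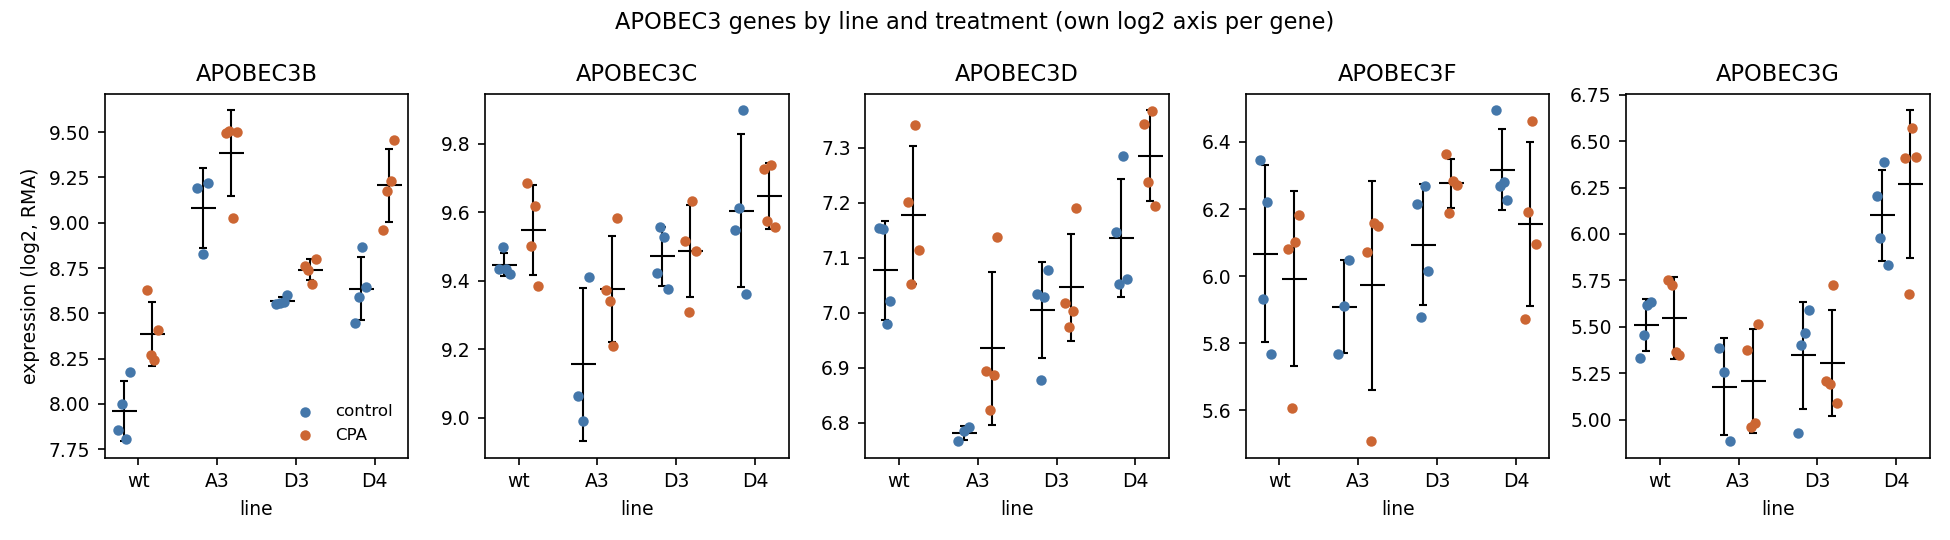
Log2 expression of the 5 APOBEC3 genes on every array, by line (horizontal axis) and treatment (colour), with group means and SD as bars and an own vertical axis per gene. APOBEC3B is lowest in untreated wt (mean 7.96) and highest in treated A3 (9.38), while APOBEC3G is highest in both D4 groups (6.10 and 6.27).

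APOBEC3B varied most of the 5 genes, with group means that ranged over 1.42 on the log2 scale. In untreated wt tumours its 4 arrays read 7.86, 8.0, 7.81 and 8.18 (mean 7.96 ± 0.17 SD, n = 4). In untreated A3 they read 9.19, 8.83 and 9.22 (9.08 ± 0.22 SD, n = 3). Every A3 array lay above every wt array, which is the contrast in which the gene had been noticed. The difference was 1.12 ± 0.13 SE, or 2.17-fold, in a comparison where 18.5% of all genes were called and 13.9% were higher without overlap. The untreated resistant clones lay between. D3 read 8.55, 8.56, 8.56 and 8.60 (8.57 ± 0.02 SD, n = 4), and D4 read 8.45, 8.59, 8.86 and 8.65 (8.64 ± 0.17 SD, n = 4). D3 and D4 overlapped and differed by 0.07.

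The same order of A3 over D3 over wt was present in the treated tumours, whose arrays are not those of the contrast in which the gene had been noticed. Treated wt arrays read 8.63, 8.27, 8.24 and 8.41 (8.39 ± 0.18 SD, n = 4), and treated A3 arrays read 9.50, 9.51, 9.03 and 9.50 (9.38 ± 0.24 SD, n = 4). All 4 A3 arrays lay above all 4 wt arrays, as was so for 8.52% of genes. APOBEC3B was 2.00-fold higher in A3 (log2 difference 0.996 ± 0.12 SE, adjusted p 3.32e-07 with limma). Leaving out each array in turn kept the difference between 0.95 and 1.12.

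Treated D4 arrays read 8.96, 9.18, 9.23 and 9.45 (9.21 ± 0.20 SD, n = 4), and treated D3 arrays 8.76, 8.74, 8.66 and 8.80 (8.74 ± 0.06 SD, n = 4). Both resistant clones were above wt without overlap, as were 10.4% of genes for D4 and 9.98% for D3, and D4 was above D3. The D4 level was 1.76-fold that of wt (0.82 ± 0.12 SE, adjusted p 7.56e-06 with limma). D3 was higher than wt by 0.35 ± 0.12 SE (adjusted p 0.0343 with limma), a call that was lost on leaving out any 1 of 6 of the 8 arrays compared: wt replicates 2, 3 and 5 and D3 replicates 2, 3 and 5 (adjusted p 0.0139 to 0.119 over all 8). Against the sensitive passaged clone A3, D3 was 1.56-fold lower (-0.64 ± 0.12 SE, adjusted p 0.000827 with limma). D4 against A3 gave -0.18 with a 95% interval from -0.41 to 0.06 (adjusted p 0.307), and its arrays overlapped those of A3. D4 was higher than D3 by 0.46 ± 0.12 SE (adjusted p 0.0194), and that call was lost without D3 replicate 5 (adjusted p 0.0508), D4 replicate 2 (0.054) or D4 replicate 5 (0.0683). Among treated tumours the highest APOBEC3B levels were thus found in a sensitive clone and in 1 of the 2 resistant clones. In untreated tumours D3 and D4 overlapped and differed by 0.07.

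**Figure D2:**
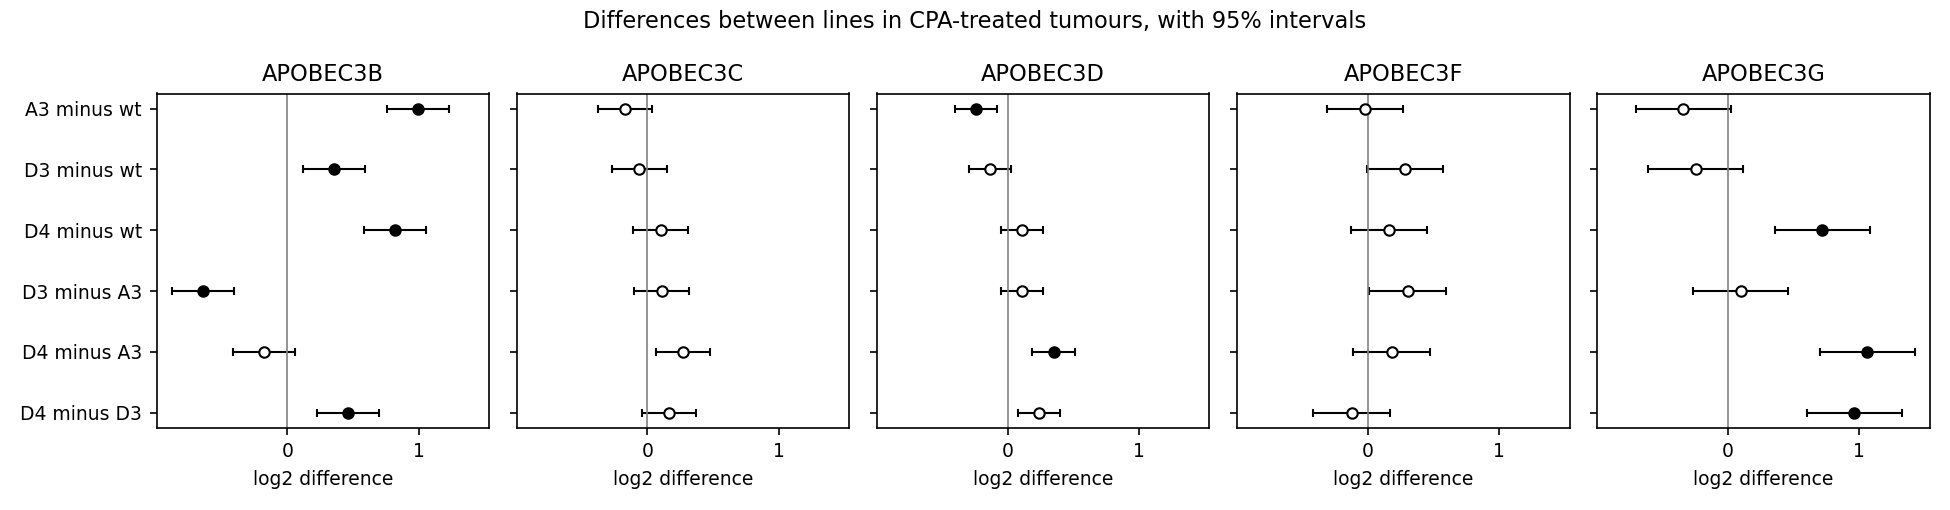
Log2 differences between lines in CPA-treated tumours for each gene, with 95% intervals, and filled points where the adjusted p over all genes was under 0.05. APOBEC3B differed in 5 of the 6 pairs, and APOBEC3G in the 3 pairs that involve D4.

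APOBEC3B was also the only one of the 5 genes called for the response to CPA. Averaged over the 4 lines it rose by 0.37 ± 0.06 SE, or 1.29-fold (adjusted p 0.000167 with limma), in a comparison that called 2.33% of all genes and 1.18% as higher. Without each array in turn the mean response stayed between 0.34 and 0.40, with adjusted p between 2.34e-05 and 0.000569. In D4 the rise was 1.48-fold (0.57 ± 0.12 SE, adjusted p 0.0148), beside 1.03% of genes called. That call was lost without D4 control replicate 1 (adjusted p 0.0793) or D4 CPA replicate 5 (0.06), and when the fit held only those 2 groups (0.0936).

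The responses in the other lines had the same sign and did not pass the threshold. They were 0.43 ± 0.12 SE in wt (adjusted p 0.38), 0.30 ± 0.13 SE in A3 (0.612) and 0.17 ± 0.12 SE in D3 (0.511). Few genes of any kind were called there, at 0.0462%, 0.352% and 0.231% respectively. Treated and untreated arrays did not overlap in wt, D3 and D4, a separation in the higher direction that 1.34%, 3.96% and 4.14% of genes showed. In A3 they overlapped because treated replicate 3 read 9.03. The untreated wt and A3 arrays used as baselines here are those on which the gene had been noticed. That selection could raise the response in wt and lower the response in A3. Whether the response differed between lines was tested for each pair, and none of the 30 such tests over the 5 genes was called with limma, while 1 had an unadjusted p under 0.05. That 1 was APOBEC3B in D4 against D3 (0.40 ± 0.16 SE, adjusted p 0.13), where 0.0866% of genes were called, against 0% in each of the other 5 pairs. A smaller response in D3 than in D4 is thus not shown at this number of arrays.

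**Figure D3:**
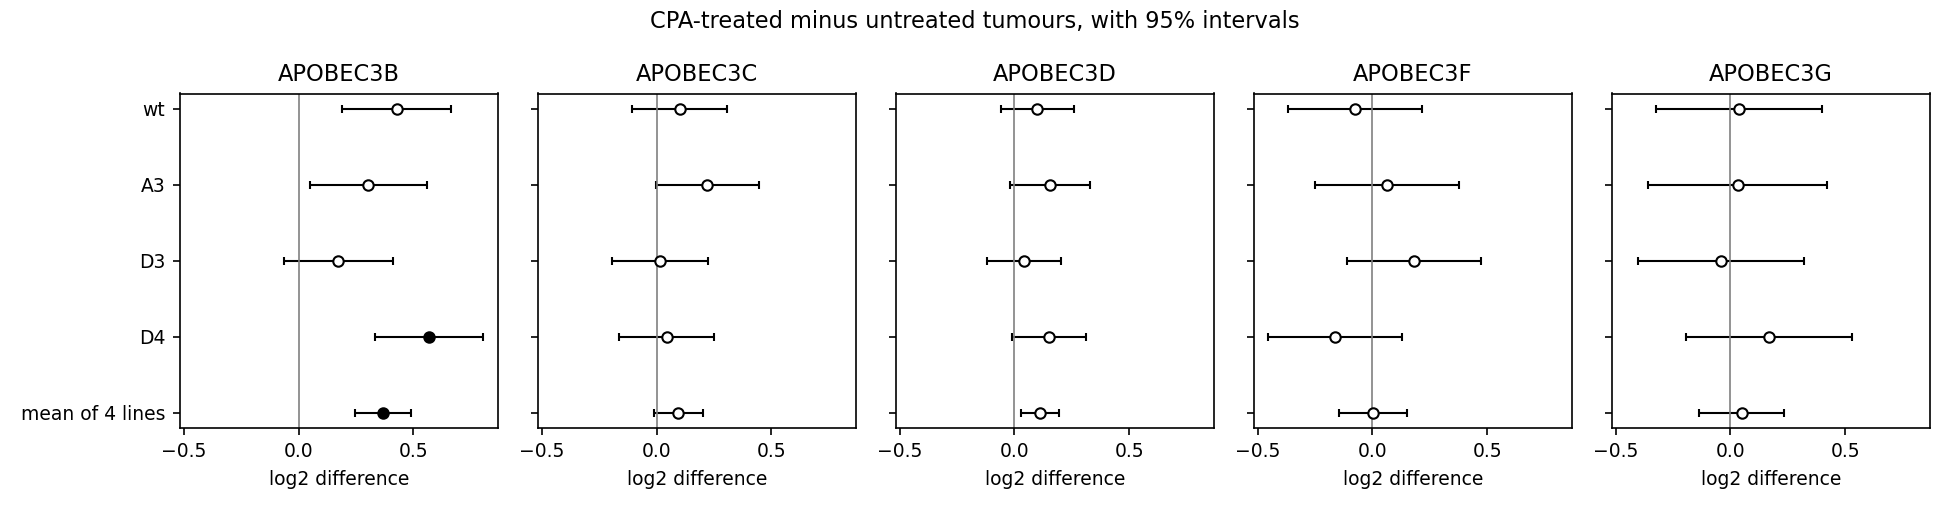
CPA-treated minus untreated tumours for each gene in each line and as the mean of the 4 lines, as log2 differences with 95% intervals and filled points where called. APOBEC3B lies above 0 in all 4 lines, with a mean of 0.37, and the mean response of the other 4 genes lies between 0.00 and 0.11.

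APOBEC3G, a deaminase with strong activity against HIV-1 lacking Vif, set clone D4 apart. Untreated D4 arrays read 6.20, 5.98, 6.39 and 5.83 (6.10 ± 0.25 SD, n = 4). Untreated wt read 5.33, 5.46, 5.62 and 5.63 (5.51 ± 0.14 SD, n = 4), A3 read 5.39, 5.26 and 4.88 (5.18 ± 0.26 SD, n = 3), and D3 read 4.93, 5.40, 5.47 and 5.59 (5.35 ± 0.29 SD, n = 4). All 4 untreated D4 arrays lay above all 11 arrays of the other untreated lines. The untreated differences were 0.59 from wt, 0.92 from A3 and 0.75 from D3. The share of all genes higher in D4 without overlap was 8.81% against wt, 4.4% against A3 and 2.48% against D3.

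In treated tumours D4 read 6.41, 5.68, 6.57 and 6.41 (6.27 ± 0.40 SD, n = 4). Treated wt read 5.75, 5.73, 5.36 and 5.35 (5.55 ± 0.22 SD, n = 4), A3 read 5.38, 4.96, 4.98 and 5.52 (5.21 ± 0.28 SD, n = 4), and D3 read 5.21, 5.19, 5.73 and 5.09 (5.31 ± 0.29 SD, n = 4). D4 replicate 2, at 5.68, was the low array of its group and lay within the range of treated wt and D3. APOBEC3G was higher in D4 than in wt by 0.72 ± 0.18 SE (adjusted p 0.00464 with limma). It was higher than in A3 by 1.06 ± 0.18 SE (adjusted p 0.00016) and higher than in D3 by 0.96 ± 0.18 SE (adjusted p 0.00319). These 3 calls held on leaving out each array. None of the 3 pairs without D4 was called, and the mean response to CPA was 0.05 ± 0.09 SE (adjusted p 0.936). By its mean over all arrays the gene lies in the dimmest 30% of genes, where array background compresses a change of transcript. The table used here holds no detection calls, so it is not known whether the lower groups lay above background, and no fold is given for this gene.

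By group mean APOBEC3D was lowest in A3, as APOBEC3C, APOBEC3F and APOBEC3G were. The untreated A3 arrays of APOBEC3D read 6.77, 6.78 and 6.79 (6.78 ± 0.01 SD, n = 3), below all untreated arrays of the other lines. Untreated wt read 7.15, 7.15, 6.98 and 7.02, D3 read 7.03, 6.88, 7.03 and 7.08, and D4 read 7.15, 7.05, 7.29 and 7.06. Untreated A3 was 0.30 below wt, where 10.3% of genes were lower without overlap. Untreated D3 was 0.22 above A3 and untreated D4 0.36 above A3, where 5.3% and 4.4% of genes were higher without overlap. Treated A3 arrays read 6.89, 6.82, 6.89 and 7.14 (6.94 ± 0.14 SD, n = 4), and treated D4 arrays 7.34, 7.24, 7.37 and 7.19 (7.29 ± 0.08 SD, n = 4). The 2 treated groups did not overlap, as for 9.5% of genes in this direction, and APOBEC3D was 1.27-fold higher in D4 (0.35 ± 0.08 SE, adjusted p 0.00351 with limma).

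Treated wt read 7.20, 7.05, 7.34 and 7.11 for APOBEC3D (7.18 ± 0.13 SD, n = 4), and treated D3 read 7.02, 6.97, 7.0 and 7.19 (7.05 ± 0.10 SD, n = 4). Treated A3 was lower than wt by 0.24 ± 0.08 SE (adjusted p 0.0327 with limma), though the arrays overlapped. That call was lost without wt CPA replicate 1 or 3 or A3 CPA replicate 1, 2 or 3 (adjusted p 0.00626 to 0.153 over the 8 arrays left out), and with only the groups compared (0.109). D4 against D3 gave 0.24 (adjusted p 0.0537), just short of the threshold, with the lowest D4 and the highest D3 array both at 7.19. The mean response to CPA was 0.11 with a 95% interval from 0.03 to 0.19 (adjusted p 0.187), so that the unadjusted interval lay above 0 while the gene was not called.

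APOBEC3C moved little. Its group means ranged over 0.49, from 9.16 ± 0.22 (SD, n = 3) in untreated A3, whose arrays read 9.06, 8.99 and 9.41, to 9.65 ± 0.10 (SD, n = 4) in treated D4, whose arrays read 9.73, 9.58, 9.74 and 9.56. All neighbouring groups in the order of means overlapped, but groups farther apart did not all overlap. Untreated A3 lay narrowly below untreated wt (-0.29), as 10.3% of genes did without overlap. Untreated D4 was 0.45 above untreated A3, with overlapping arrays. No test of this gene was called. The nearest was treated D4 against A3 (0.27 ± 0.10 SE, adjusted p 0.0741), with treated A3 arrays at 9.37, 9.34, 9.21 and 9.58. That difference was called with the replicate number as a block (0.29, adjusted p 0.025), as was treated A3 against wt (-0.25, adjusted p 0.0398 against 0.274 without the block), although same-numbered arrays of these treated groups did not all deviate together. The mean response to CPA was 0.10, with a 95% interval from -0.01 to 0.20.

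APOBEC3F gave no called test either. Its arrays ran from 5.51 in treated A3 to 6.50 in untreated D4, and its group means ranged over 0.41. Treated D3 arrays read 6.36, 6.19, 6.28 and 6.27, just above treated wt at 6.08, 5.61, 6.10 and 6.18 and treated A3 at 6.07, 5.51, 6.16 and 6.15. D3 did not overlap either group, and the differences of 0.28 ± 0.14 SE from wt (adjusted p 0.165) and 0.30 ± 0.14 SE from A3 (adjusted p 0.295) did not pass. The separation was narrow, and 9.98% and 3.73% of genes were higher in D3 without overlap in these comparisons. The mean response to CPA was 0.00 with a 95% interval from -0.15 to 0.15.

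Of 6 other genes of the wider AID/APOBEC family, 3 were measured by a probe set of their own, and none was called with limma in any of the comparisons of lines, CPA responses or differences between responses, with 2 of 69 tests at an unadjusted p under 0.05. APOBEC3H, the last gene of the cluster, gave a mean response to CPA of 0.16 ± 0.09 SE (adjusted p 0.52) and differed between treated A3 and wt by 0.19 ± 0.17 SE (adjusted p 0.5). APOBEC1, an RNA-editing enzyme of the gut, and APOBEC4 differed there by 0.00 and -0.04. APOBEC3A shared its probe set with a hybrid transcript and was not analysed here. APOBEC3 genes have similar sequences, and binding of a probe to more than 1 member was not tested.

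Genes on both sides of the cluster were read in the same comparisons. The 5 measured genes on each side in the RefSeq order are GTPBP1, SUN2, DNAL4, NPTXR and CBX6 on the APOBEC3B side, and CBX7, PDGFB, RPL3, SNORD83B and SNORD83A beyond APOBEC3H. In treated A3 against wt none of these 10 was called with limma, beside 16.3% of all genes, and 3 had an unadjusted p under 0.05. The difference was 0.22 for GTPBP1 and 0.24 for SUN2, of the same sign as the 0.996 of APOBEC3B but smaller. In treated D4 against A3, where APOBEC3G and APOBEC3D were higher, GTPBP1 and CBX6, a Polycomb subunit, were lower by -0.34 (adjusted p 0.0218) and -0.39 (adjusted p 0.0138). These were the 2 of 10 called, beside 12.4% of all genes. For the mean CPA response SUN2, a nuclear envelope protein, was lower by -0.27 (adjusted p 0.000976), opposite to APOBEC3B. It was the 1 flanking gene called there, beside 2.33% of all genes. A regional cause of the APOBEC3 values was not tested.

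**Figure D4:**
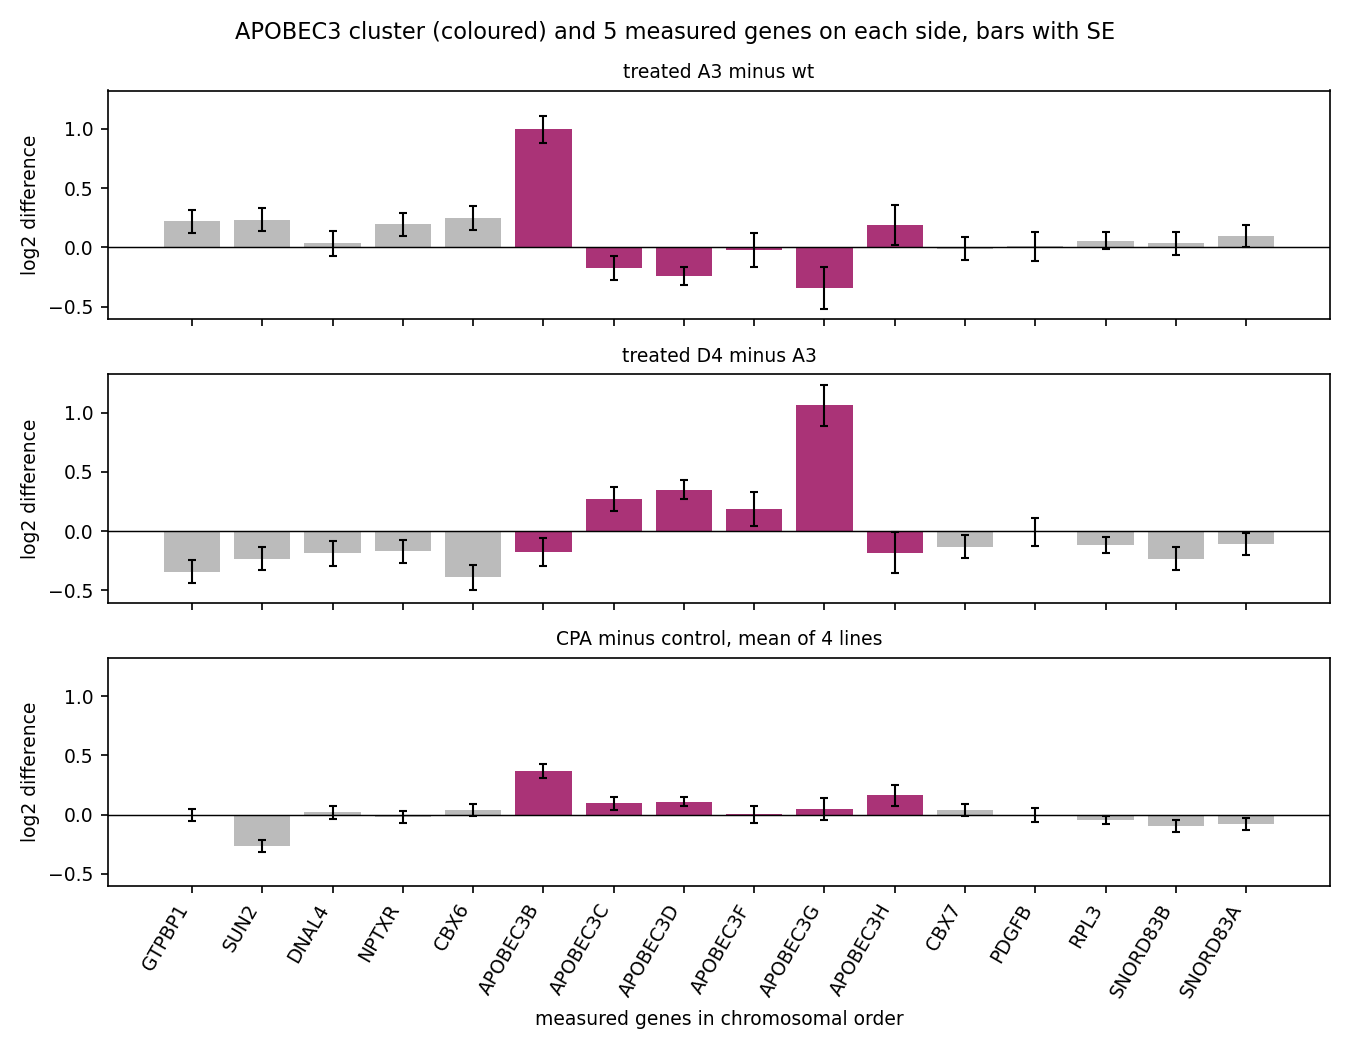
Log2 differences with SE for the measured APOBEC3 genes (coloured) and the 5 measured genes on each side (grey), in chromosomal order, for treated A3 minus wt, treated D4 minus A3 and the mean CPA response. APOBEC3B stands out in the first panel (0.996), APOBEC3G in the second (1.06) and APOBEC3B in the third (0.37), without a like shift of the flanking genes.

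Several APOBEC3 genes are known to be interferon-induced. Between lines, a list of interferon-induced genes was higher in wt, where APOBEC3B was lowest. The other members did not share the APOBEC3B direction in every clone. In treated A3 against wt 4 members were lower, APOBEC3D (-0.24, called), APOBEC3G (-0.34), APOBEC3C (-0.17) and APOBEC3F (-0.02). In treated D3 against wt 2 of the 5 members were higher and 3 lower, and in treated D4 against wt all 5 were higher. Of 25 interferon-induced effector genes, 21 were called lower and none higher in treated A3 against wt, with a median of -1.35 against 0.03 over all genes. The antiviral genes IFI44L (-2.60 ± 0.25 SE), IFIT1 (-1.79 ± 0.18 SE) and IFIT2 (-1.32 ± 0.14 SE) had the smallest p-values of the list. D3 and D4 against wt gave 23 and 24 of 25 lower. Among all genes 9.6% were called lower in treated A3, 10.1% in D3 and 7.59% in D4 against wt. The mean of the 25 genes was 8.53 in untreated and 8.44 in treated wt, and between 7.14 and 7.31 in the 6 groups of the passaged clones. Among 13 other antiviral restriction factors 7 were lower and none higher in treated A3 against wt, with the smallest p-values for IFITM1 (-1.69), TRIM22 (-1.70) and tetherin (BST2, -0.77). Of 10 interferon signalling genes 2 were lower, IRF9 (-0.86) and the kinase JAK2 (-0.53). No gene of these 3 lists was called for the mean CPA response with limma, and 1 effector, 1 restriction factor and 0 signalling genes had an unadjusted p under 0.05.

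Most proliferation genes were higher in the treated passaged clones than in wt, as APOBEC3B was. B-Myb and the DREAM complex are known regulators of APOBEC3B. Of 13 genes of that list, 6 were called higher and 1 lower in treated A3 against wt (median 0.15). Among all genes 6.74% were called higher there and 9.6% lower. MYBL2, which encodes B-Myb, was higher by 0.76 ± 0.10 SE, the repressor E2F8 by 0.79 ± 0.11 SE and FOXM1 by 0.71 ± 0.12 SE. D3 against wt gave 4 of 13 higher and 1 lower, beside 6.28% of all genes higher. D4 against wt gave 6 higher and none lower, beside 7.54% higher. Of 12 proliferation genes 10 were higher and none lower (median 0.57), with the smallest p-values for the replication licensing factors MCM2 (0.69) and MCM5 (0.67) and for CCNA2 (cyclin A, 0.68). D3 against wt gave 8 of 12 higher and D4 against wt all 12.

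For the mean CPA response these lists split. In the B-Myb and DREAM list 3 of 13 rose and none fell: MYBL2 by 0.29 ± 0.05 SE (adjusted p 0.000325), RBL1 (p107) by 0.26 ± 0.06 SE (0.0136) and E2F8 by 0.25 ± 0.06 SE (0.0158). In the proliferation list 7 of 12 fell and 1 rose, with a median of -0.36 against 0.00 over all genes. The mitotic kinase PLK1 fell by 1.06 on the log2 scale, cyclin B1 (CCNB1) by 0.86 and the mitotic checkpoint gene CDC20 by 0.63. The gene that rose was RRM2, a subunit of ribonucleotide reductase, which supplies deoxynucleotides (0.40). APOBEC3B rose with CPA while the mean of the proliferation list was lower in every line: 9.05 untreated and 8.78 treated in wt, 9.73 and 9.31 in A3, 9.60 and 9.15 in D3, and 9.61 and 9.35 in D4. This list mean covers genes that moved in both directions. The mean response was positive for 3 of the 12 genes, MCM2, PCNA and RRM2, of which only RRM2 was called. MCM2 was higher in treated than untreated tumours of every line, for example 8.99 against 8.83 in wt. The part of a changed cell cycle distribution in the APOBEC3B values was not tested.

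**Figure D5:**
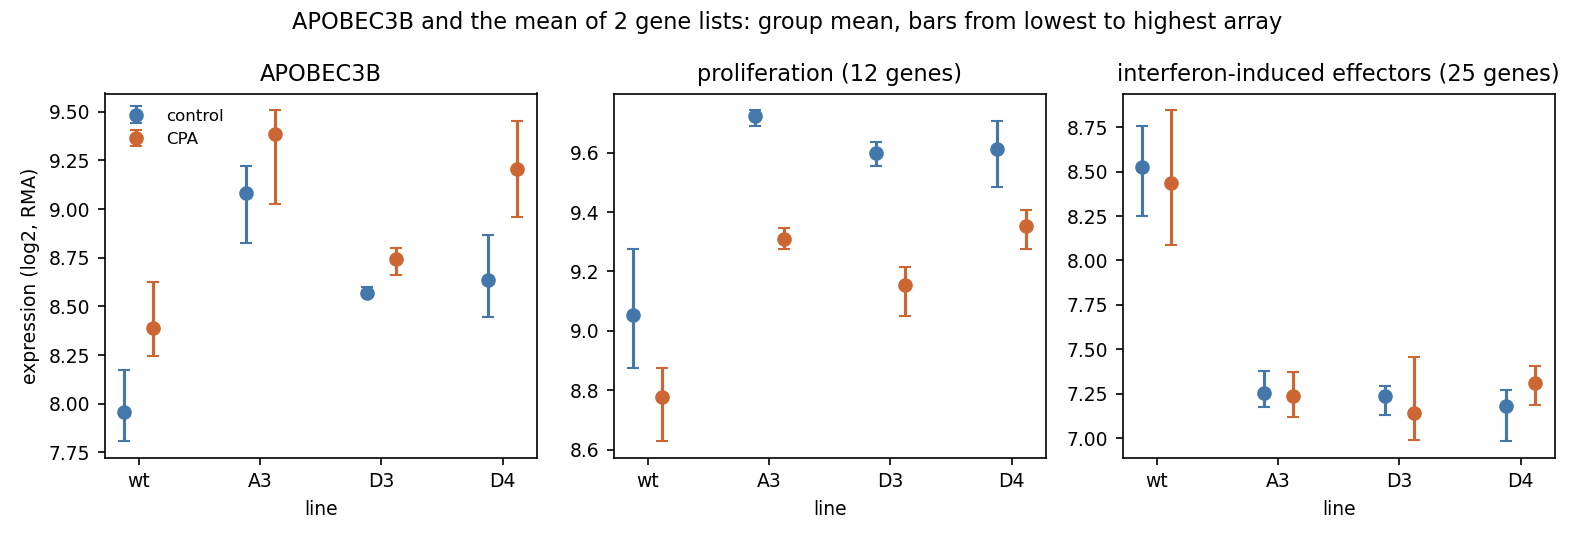
Group means of APOBEC3B, of 12 proliferation genes and of 25 interferon-induced effector genes on the log2 scale by line and treatment, with bars from the lowest to the highest array. APOBEC3B is higher in treated than untreated tumours of each line, the proliferation mean is lower in each (for example 9.31 against 9.73 in A3), and the interferon mean separates wt (8.44 and 8.53) from the passaged clones.

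Of 11 genes on a list for uracil excision repair, 2 were called higher and 1 lower in treated A3 against wt. The share of all genes called there was 16.3%. The list also holds genes outside excision repair, among them REV1, the gene called lower. D3 against wt gave 1 higher and 1 lower, beside 16.4% of all genes called. D4 against wt gave 3 higher and none lower, beside 15.1%. PARP1, a sensor of DNA strand breaks, was higher by 0.52 ± 0.07 SE and UNG by 0.32 ± 0.08 SE, while REV1, a translesion polymerase, was lower by -0.29 ± 0.10 SE. UNG differed from wt by 0.07 in treated D3 and 0.12 in treated D4, and neither was called. None of the 11 was called for the mean CPA response with limma, though 5 had an unadjusted p under 0.05, with LIG3 nearest at -0.14 (adjusted p 0.0759). Of 8 measured NF-kappaB factors and targets, a pathway that is known to induce APOBEC3B, REL was lower in treated A3 against wt (-0.27, adjusted p 0.0346) and the only one called for CPA, where it rose by 0.20 ± 0.05 SE (adjusted p 0.00979).

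Markers of other cell types did not follow APOBEC3B as lists. The probe sets are for human genes and the tumours were implanted in host animals. How far these markers read host cells rather than the carcinoma cells was not tested. In treated A3 against wt none of 9 lymphoid markers was called with limma or had an unadjusted p under 0.05, 1 of 8 myeloid markers was higher (CD68, 0.45), 1 of 6 endothelial markers was lower (KDR, -0.97) and 2 of 7 fibroblast markers were lower (COL3A1, -0.93, and LUM, -0.65). Of 5 epithelial markers 3 were lower, EPCAM (-0.49), CDH1 (-0.75) and KRT8 (-0.37). Neither of the 2 prostate luminal markers measured was called, in a comparison where 16.3% of all genes were. For the mean CPA response the keratin KRT19 (-0.25) was the only marker called, lower, among all 6 marker lists. The part of such cells in the APOBEC3 values was not tested. In treated D4 against A3, where APOBEC3G was higher, 2 epithelial markers, KRT8 (0.61) and EPCAM (0.55), and the fibroblast marker LUM (0.39) were called higher, and 2 myeloid markers, CD68 (-0.28) and CD163 (-0.33), and the endothelial marker KDR (-0.62) lower. No lymphoid or prostate luminal marker was called there with limma, and 1 lymphoid marker had an unadjusted p under 0.05. The share of all genes called there was 12.4%.

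The genes most like each member were taken by Pearson correlation over the 8 group means, among the 2925 genes whose group means ranged over at least 0.5. These points share arrays and normalization, and the correlations are description. Closest to APOBEC3B were TYMS (0.9873), thymidylate synthase; PCLAF (0.9847), a PCNA-binding factor; RFC5 (0.9841), a subunit of the clamp loader; GINS3 (0.9838), a subunit of the replicative helicase; and CDK2 (0.9829), a cyclin-dependent kinase. Their mean CPA responses were 0.24, 0.38, 0.18, 0.22 and 0.22, and their differences in treated A3 against wt 0.72, 0.81, 0.48, 0.53 and 0.67. Closest to APOBEC3D were TMEM87B (0.9644), RELCH (0.9543), CD109 (0.9523), MIR15A (0.9469) and ASAH1 (0.9457), acid ceramidase. Closest to APOBEC3G were GINM1 (0.9601), PRSS35 (0.9388), TMEM30A (0.9326), SNORD50A (0.9258) and HTR1E (0.9164), a serotonin receptor. APOBEC3D and APOBEC3G correlated at 0.822 over the groups, while APOBEC3B correlated with APOBEC3D at -0.244. APOBEC3C and APOBEC3F ranged over less than 0.5 and were not matched.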

How the data were processed

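The deposited values are log2 expression levels on Affymetrix Human Gene 1.0 ST arrays, for which the submitters' processing notes name RMA. This method subtracts background, gives all arrays the same distribution and merges the probes of each set into 1 value, which can compress low levels. Its software and version are not given in the sources used here. RNA was total RNA extracted with Trizol, per the labels' protocols. Of 23989 probe sets, 17624 carried 1 gene symbol, 411 several and 5954 none. For the 276 genes with more than 1 set, the brightest set on average was used, giving 17314 genes. By Entrez number 17290 matched a RefSeq gene table (GRCh38.p14), used for names, gene order and the chromosome of a gene. Promoter and protein sequences of the members were not used here.

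limma 3.58.1 in R 4.3.3 (lmFit, eBayes) fitted 8 group means over 31 arrays, with 23 residual degrees of freedom, and adjusted p-values by Benjamini-Hochberg. Correlations and figures were made in Python 3.11.15. Groups were called non-overlapping where every array of one lay beyond every array of the other. Alternatives were the replicate number as a block, a fit of the compared groups alone, a variance trend with a robust prior, array weights, further quantile normalization, median centring, no dim genes (lowest 30%), all probe sets and each array left out. A fit without the 4 arrays farthest from their group mean was chosen after seeing the data. The submitters' omitted array was not analysed here. No scan dates or batches were given. No 2 arrays held identical values.

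The members and the 15 lists (149 genes, 137 measured) were chosen with earlier results of these data known. The text names all members, up to 3 genes per list with the smallest p in treated A3 against wt or for the mean CPA response, the 5 genes most like a member, and 5 flanking genes on each side. RRM2 and PCNA were named after their values were seen, as was MCM2 for the CPA response. On simulated data with 200 of 17314 genes changed by a log2 of 1, the fit recovered 99.5% for treated A3 against wt, 99.5% for CPA in wt, 100% in A3, 99.5% in D4, and 90.5% for the CPA effect in D3 against wt. At 0.5 it recovered 71.5%, 74%, 62%, 73% and 25.5%. The real CPA comparisons called fewer genes in wt (8) and A3 (61) than the 200 changed in the simulation. The adjusted threshold there was thus stricter, and the recovery may be lower.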

Additional observations from a re-analysis of the deposited data

Results flagged for a closer look

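Among 35 groups of 4 arrays tested for the 5 genes, 2 held an array far from the other 3, and chance alone flags about 1 group in 20. In treated A3 tumours APOBEC3B read 9.03 in replicate 3, while the nearest other array read 9.50. In the same group APOBEC3F read 5.51 in replicate 2, while the nearest other array read 6.07. These are different arrays.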

How the results depend on the processing

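No difference of a member changed sign when called under any alternative. Leaving out arrays one at a time gave 1240 values, of which 1223 kept their side of the threshold or their size, 16 lost a call and 1 gained one; the other alternatives gave 1012, of which 996 were kept, 4 lost, 9 gained and 3 moved. The number of members called fell with only the groups compared, to 1 in treated A3 against wt and 0 for CPA in D4. It fell to 0 in treated D3 against wt with median centring (APOBEC3B 0.33, adjusted p 0.0632) and without the 4 farthest arrays (adjusted p 0.0527). With single arrays left out it ranged from 1 to 2 in treated A3 against wt, 0 to 1 in D3 against wt, 1 to 2 in D4 against D3, and 0 to 1 for CPA in D4. APOBEC3D in treated D4 against D3 was called with array weights (0.27), further quantile normalization (0.26), median centring (0.31), without dim genes (0.24) and without the 4 farthest arrays (0.29). APOBEC3C in treated D4 against A3 was called with array weights (0.31), without A3 CPA replicate 4 (0.34) and without the 4 farthest arrays (0.27, adjusted p 0.0393). In untreated D4 against A3, leaving out the 4 farthest arrays moved APOBEC3B from -0.44 to -0.65 and APOBEC3C from 0.45 to 0.27, and array weights took APOBEC3C to 0.24. The causes were not tested. APOBEC3G had no value without dim genes, and no member had another probe set of its own symbol.

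The replicate block raised the number of members called in treated A3 against wt from 2 to 3 (APOBEC3C -0.25) and called APOBEC3C in treated D4 against A3 (0.29), and it changed no other call. The labels do not say what a number marks. Every same-numbered pair of arrays correlated above 0.1 in its deviations only for untreated wt with D3 (0.155 to 0.408) and untreated D3 with D4 (0.214 to 0.425). It did not do so for any pair of treated groups, or for treated and untreated tumours of the same line. These untreated groups do enter the mean CPA response and the differences between responses as the baseline. Treated A3 and wt gave -0.124 to 0.234 and treated D4 and A3 -0.323 to 0.0264. With this number of arrays, differences near 0.5 between 2 lines' CPA responses would often be missed. The simulated recovery of 25.5% was for the CPA effect in D3 against wt with 200 genes changed. In the real data 0% of genes were called in that comparison, so the adjusted threshold was stricter and the recovery may be lower.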

Other observations

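All 5 genes most like APOBEC3G over the groups, GINM1, PRSS35, TMEM30A, SNORD50A and HTR1E, are listed on chromosome 6 in the RefSeq table, while the APOBEC3 cluster lies on another chromosome. Among the 25 closest genes 12 were on chromosome 6, against 5 of 25 for APOBEC3D and 0 of 25 for APOBEC3B. Of all genes that ranged enough to enter, 210 of 2921 (7.19%) were on chromosome 6. This count was made after the 5 names were seen, and it was not tested. In treated D4 against A3, HTR1E differed by 0.64, PRSS35 by 1.09 and GINM1 by 0.46, beside 1.06 for APOBEC3G.

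Within groups, 40 relations among the members and between members and list means were computed over the 31 arrays after removing group means, each with 100000 permutations within groups. None had an adjusted p under 0.05 (lowest 0.172). The mean of the proliferation genes and APOBEC3B gave r = 0.485 and rho = 0.449 (permutation p 0.0102 and 0.0279, adjusted 0.172 and 0.224), and r = 0.411 without the 2 farthest arrays. APOBEC3C and APOBEC3D gave r = 0.494 and rho = 0.457 (permutation p 0.0129 and 0.0179, adjusted 0.172 and 0.224), and r = 0.449 without the 2 farthest.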
